A study of Mus musculus with 2 samples.

Results

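The replication-dependent histone genes were examined in single cells of mouse embryos. They were taken as every gene of the count table whose symbol begins with Hist1h, Hist2h, Hist3h or Hist4h, which gave 67 of 32285 genes. By type, 6 encode the linker histone H1, 18 encode H2A, 18 encode H2B, 12 encode H3 and 13 encode H4. On GRCm38, 54 of them lie in the large cluster at chr13:21715763-23934851, 10 at chr3:96219865-96270132, 2 on chromosome 11 and 1 on chromosome 6. In the filtered cells, 65 of the 67 had at least 1 unique molecular identifier (UMI, a tag that marks 1 captured RNA molecule) in the control library and 67 in the mutant library.

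Cells came from embryos at E13.5, from tissue above the liver that the labels call pharyngeal arch, and were sorted for eYFP with dead cells excluded by 7-AAD. The control was Isl1-Cre;R26R-eYFP. The mutant was Isl1-Cre;R26R-eYFP;Pik3caH1047R, in which the same Cre also switches on an activated form of PI3K in every cell that expresses Isl1 and in its descendants. Each genotype was 1 library made from 3 pooled embryos on a mixed background, so every interval given here is a 95% interval for counting error only, no p-value is given, and embryo, library and genotype cannot be told apart.

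Replication-dependent histones package newly copied DNA, and their genes are transcribed mainly in S phase, when the cell needs as much new histone as new DNA. Their messenger RNAs end in a short stem-loop, bound by the protein Slbp, in place of the poly(A) tail of other messengers, and they are degraded when DNA synthesis stops. A number of these genes also give polyadenylated RNA, including in cells that have left the cell cycle. The 5′ kit used here primes RNA with oligo-dT, so the UMIs described below are molecules with a tail or with an internal stretch of A, and the part each kind of molecule has in them was not tested.

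The cells kept had over 2000 but under 9000 genes detected, and under 10% of their UMIs from mitochondrial genes. This left 2783 of 4505 control cells with 63153191 UMIs and 3489 of 5357 mutant cells with 69717583 UMIs, with median depths of 20412 and 16839 UMIs per cell. Barcodes shared by both libraries numbered 28, of which 12 passed the filter. Cells with Xist and no Y-linked RNA made up 95.5% of control and 33.6% of mutant cells, so values are also given for those female-like cells alone where that changes a result. Levels are given as counts per 1000000 UMIs (CPM). Pik3ca itself read 34.8 CPM in control (33.3 to 36.3) and 36.7 in mutant (35.3 to 38.1), a count that does not separate the transgene from the normal gene.

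The 3′ stem-loop is the feature that sets these messengers apart, and it is shown for 5 members described below. The pattern searched was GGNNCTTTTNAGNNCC, in which N is any base, on the sense strand of the annotated transcripts. It was present in 44 of 67 members (65.7%) and in 45 of 55383 other genes (0.0813%). Capitals mark the stem-loop, and the lower-case bases are the 5 on either side of it.

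Hist1h2ae: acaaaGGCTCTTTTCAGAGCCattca
Hist1h1e: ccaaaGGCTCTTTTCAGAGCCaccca
Hist1h4d: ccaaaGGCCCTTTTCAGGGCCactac
Hist1h3c: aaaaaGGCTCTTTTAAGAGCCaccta
Hist3h2ba: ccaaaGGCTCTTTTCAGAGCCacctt

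Hist1h2ae, Hist1h1e and Hist3h2ba carried the same 16 bases, which were the version found in 26 members, whereas the windows of Hist1h4d and Hist1h3c differed from it within the stem or the loop. These letters were not found in the annotated transcripts of Hist1h1b, Hist1h1a or Hist1h2bc, and whether those annotations reach the natural 3′ end was not tested. Among the 49 members with at least 200 UMIs in muscle progenitor-like cells, the median log2 ratio of S-called over G1-called cells was 2.15 in control and 1.43 in mutant for the 32 members with the stem-loop, and 2.34 and 1.86 for the 17 without it.

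Promoters are shown for 4 members that mark the ends of the range described below, as the 150 bases before the RefSeq start site (GRCm38.p6), read 5′ to 3′ on the strand of the gene. Hist1h2ae (H2ac8 in RefSeq) gave the most UMIs, Hist1h1b (H1f5) and Hist1h1a (H1f1) encode H1 proteins, and Hist3h2ba (H2bu2) was highest in neuron-like cells. The windows are chr13:23571221-23571370 on the minus strand for Hist1h2ae, chr13:21780626-21780775 on the minus strand for Hist1h1b, chr13:23763518-23763667 on the plus strand for Hist1h1a and chr11:58948761-58948910 on the plus strand for Hist3h2ba. Capitals mark matches on either strand to CCAAT (an element bound by NF-Y), to TATAAA (the TATA box), to AAACACA (an element known from H1 promoters) and to ATTTGCAT (the octamer).

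Hist1h2ae: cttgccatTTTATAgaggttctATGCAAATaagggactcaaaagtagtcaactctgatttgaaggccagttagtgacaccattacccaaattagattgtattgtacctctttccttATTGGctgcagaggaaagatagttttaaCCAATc
Hist1h1b: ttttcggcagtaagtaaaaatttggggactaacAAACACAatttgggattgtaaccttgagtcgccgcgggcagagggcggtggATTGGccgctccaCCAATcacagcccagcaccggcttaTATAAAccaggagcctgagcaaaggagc
Hist1h1a: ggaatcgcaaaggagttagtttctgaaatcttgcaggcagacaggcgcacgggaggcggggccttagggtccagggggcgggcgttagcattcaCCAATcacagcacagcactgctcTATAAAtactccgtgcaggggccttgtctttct
Hist3h2ba: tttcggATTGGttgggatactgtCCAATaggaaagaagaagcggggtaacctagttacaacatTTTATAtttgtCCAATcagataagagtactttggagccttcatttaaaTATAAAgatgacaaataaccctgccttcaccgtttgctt

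RefSeq promoter windows, from 250 bases before to 50 after the start, were matched for 61 of 67 members. CCAAT was present in 52 of 61, against 37.8% of the 26964 other promoters, and it was in every matched H1, H2A, H2B and H3 window but in 3 of 12 H4 windows. TATAAA was in 35 of 61 (14.1% of the others), AAACACA in 5 of 6 H1 windows (7.12% of the others), and the octamer in 7 of 17 H2A and 6 of 16 H2B windows (1.71% of the others), with none in H1, H3 or H4. Members also lay head to head: 12 pairs of 1 H2A and 1 H2B gene, 24 genes in all, were transcribed away from each other with starts 176 to 306 bases apart. These pairs include Hist1h2ae with Hist1h2bg and Hist1h2ac with Hist1h2bc. The windows of such a pair cover shared bases, so an element matched on either strand can be counted for both genes. In the Hist1h2ae window, TTTATA and ATGCAAAT are TATAAA and ATTTGCAT on the strand of Hist1h2bg. Which gene of a pair an element belongs to was not tested. A match to a motif describes these letters alone.

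Summed over members, 156938 histone UMIs were counted in control cells, or 2485 CPM, and 154085 in mutant cells, or 2210 CPM. The log2 ratio of mutant over control was -0.17 (-0.18 to -0.16). It was -0.05 in female-like cells alone, -0.03 with cells thinned to an equal depth of 5000 UMIs and -0.02 as a mean over cells. H2A genes held 39.5% of control and 36.6% of mutant histone UMIs, H1 genes 26.6% and 24.02%, H3 genes 13.53% and 13.7%, H2B genes 12.2% and 15.6%, and H4 genes 8.15% and 10.0%. The 10 most counted members held 57.1% of the histone UMIs of both libraries, led by Hist1h2ae with 25756 control and 23017 mutant UMIs. Of the 67 members, 62 had at least 20 UMIs over both libraries, and Hist1h2aa and Hist1h2ba, a head-to-head pair known from the testis, had 0 UMIs in control, which a true count of up to 3 allows, and 3 in mutant. Reads that fit near-identical copies are not assigned to a single gene, and 13 members had under 20% of their 100-base stretches unique among annotated transcripts, so that single-gene values below are uncertain for copies of this kind and the sum is less so.

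Muscle progenitor-like cells held the most histone RNA in control. They were a cluster led by Msc, Myf5 and Pax7, all regulators of early head muscle, and a shallower cluster of 135 control and 105 mutant cells led by Lama2 and Pax7, and together held 575 control and 624 mutant cells. Their histone UMIs read 3565 CPM in control (3536 to 3594) and 2936 in mutant (2908 to 2964). Pax7 read 119 and 94.7 CPM in these cells, against 4.86 and 2.995 in neuron-like cells, and Myod1 214 and 117.

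The order of the other classes in control was cluster 6 at 3124 CPM, cluster 7 at 2428, epithelium-like cells at 2142, differentiating myocyte-like cells at 2058, endothelial cell (EC)-like cells at 1982, mesenchyme-like cells at 1726, cardiomyocyte-like cells at 1437, mesothelium-like cells at 1431 and neuron-like cells at 1233. Clusters 6 and 7 were left unnamed, the first led by Adh1, Wnt2 and Tbx4, the second by globin and macrophage genes. Counting intervals of myocyte-like and EC-like cells overlapped, as did those of cardiomyocyte-like and mesothelium-like cells. Overlap alone does not settle whether such neighbours differ, and no ratio was taken between them.

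In the mutant library the order changed at the top. Cluster 7 read 2941 CPM, muscle progenitor-like cells 2936 and cluster 6 2914, with a log2 ratio of progenitor-like cells of -0.00 over cluster 7 (-0.03 to 0.03) and 0.01 over cluster 6 (-0.03 to 0.06). Epithelium-like cells followed at 2430, mesenchyme-like cells at 2371, EC-like cells at 1994, neuron-like cells at 1454, myocyte-like cells at 1446, mesothelium-like cells at 1368 and cardiomyocyte-like cells at 1225. Over the 10 compared classes, the levels of both libraries had a Spearman's rho of 0.81, a description in which each point is a class that shares its library and depth with the others.

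**Figure D1:**
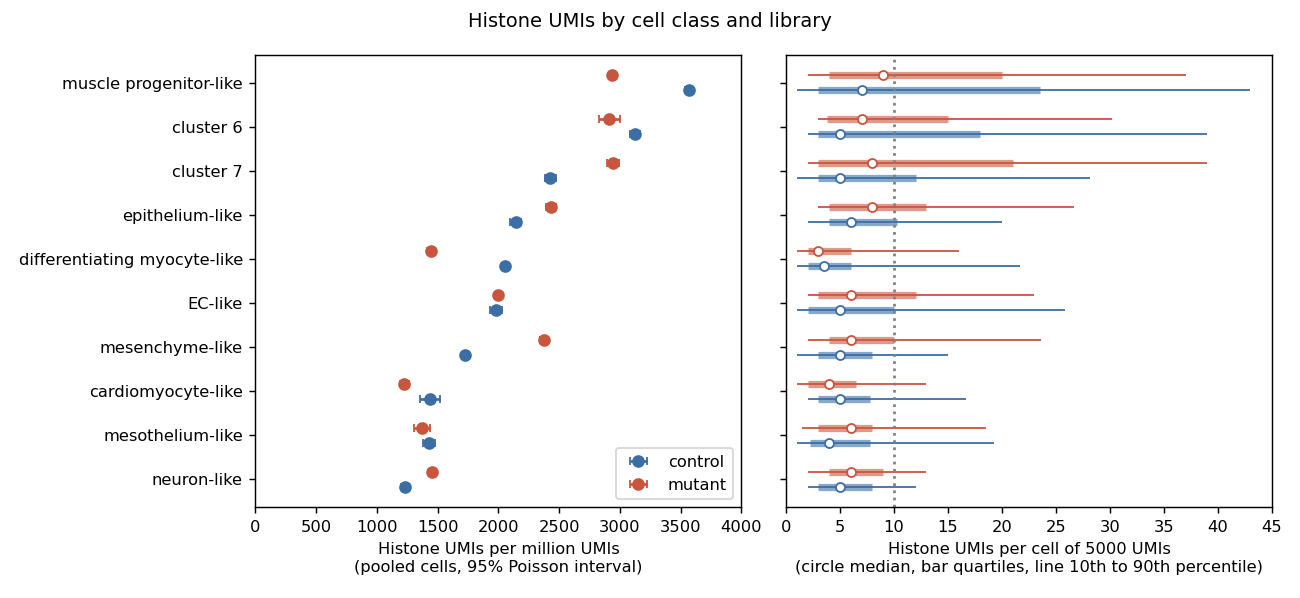
Histone UMIs by cell class, control in blue and mutant in red. Left, histone CPM of the pooled cells with the 95% Poisson interval; right, histone UMIs per cell after thinning to 5000 UMIs (circle, median; bar, quartiles; line, 10th to 90th percentile; dotted line, the limit of 10 UMIs). Muscle progenitor-like cells reach 3565 CPM in control, and their 90th percentile lies at 43 UMIs per cell in control and 37 in mutant.

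Cells were then thinned to 5000 UMIs each, so that they were compared at equal depth, and a cell with 10 or more was called histone-rich. This left out 61 control and 173 mutant cells below that depth. Among muscle progenitor-like cells, 41.6% were histone-rich in control (37.5 to 45.8) and 46.9% in mutant (42.8 to 51.1). The median thinned cell held 7 and 9 histone UMIs, the highest 129 and 118, and 31 control and 57 mutant cells lay at 9 to 11 UMIs, next to the limit. At a limit of 20 UMIs the shares were 29.5% and 25.2%, so the direction between the libraries depended on the limit, and no order is read from it.

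A baseline for such shares was given by G1-called differentiating myocyte-like cells, which are leaving the cell cycle. Of these, 4.46% of 224 control cells and 5.59% of 143 mutant cells were histone-rich, at median depths of 23237 and 24074 UMIs, against 27980 and 21819 in muscle progenitor-like cells. Over all phases, the histone-rich share was 16.9% and 17.2% in all myocyte-like cells, 19.5% and 23.1% in neuron-like cells, 18.0% and 27.9% in mesenchyme-like cells, 27.3% and 30.7% in EC-like cells, and 28.8% and 44.1% in cluster 7. Histone UMIs were unevenly spread over cells: the top 10% of muscle progenitor-like cells held 47.9% of the class's histone UMIs in control and 44.3% in mutant, and the top 10% of control myocyte-like cells held 73.3%.

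Within muscle progenitor-like cells, histone RNA was lower in cells called G1 than in the rest. Phases were called from S and G2/M gene lists that hold no member. In control, 57 cells (10.1%) were called G1, 299 (53.1%) S and 207 (36.8%) G2M, and in mutant 84 (14.3%), 326 (55.4%) and 178 (30.3%). Control G1-called cells held 663 histone CPM, S-called cells 3696 and G2M-called cells 3883. Mutant cells held 977, 3384 and 2813.

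The log2 ratio of S-called over G1-called cells in control was 2.48, 5.57-fold, with an interval of 2.37 to 2.59, and the mutant value was 1.79, 3.46-fold, with an interval of 1.71 to 1.87. Thinning cells to equal depth lowered both values, to 1.78 and 1.51. G2M-called cells also stood above G1-called cells, by log2 2.55 in control and 1.53 in mutant. Between S-called and G2M-called cells the difference was small and went in opposite directions in the libraries: the log2 ratio of S-called over G2M-called cells lay at -0.07 (-0.10 to -0.05) in control and at 0.27 (0.24 to 0.30) in mutant.

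The same contrast held over all filtered cells, with S over G1 at log2 2.19 in control and 1.72 in mutant. It was widest in control differentiating myocyte-like cells, where 43 S-called cells held 7061 histone CPM and 224 G1-called cells held 569.5, a 12.4-fold ratio. In mutant myocyte-like cells, 23 S-called cells held 3556 CPM and 143 G1-called cells held 597. Over the classes compared, G1-called cells ran from 569.5 CPM in myocyte-like to 1104 in epithelium-like cells in control and from 519 in cardiomyocyte-like to 1348 in epithelium-like cells in mutant.

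Histone-rich cells were concentrated where both scores were high. Cells were put into low, middle and high bands of equal number by S score and by G2M score over both libraries. Of cells high in both, 74.95% of 507 control cells and 75.2% of 577 mutant cells were histone-rich. Of cells high in S score and low in G2M score, 2.91% of 103 control and 15.9% of 82 mutant cells were, and of cells low in both, 7.97% of 527 and 11.3% of 656. In muscle progenitor-like cells, 66.7% of 216 control and 67.7% of 198 mutant cells high in both scores were histone-rich, whereas 0 of 33 control cells and 17.1% of 41 mutant cells were in the band high in S and low in G2M. A count of 0 of 33 leaves room for 3 cells.

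**Figure D2:**
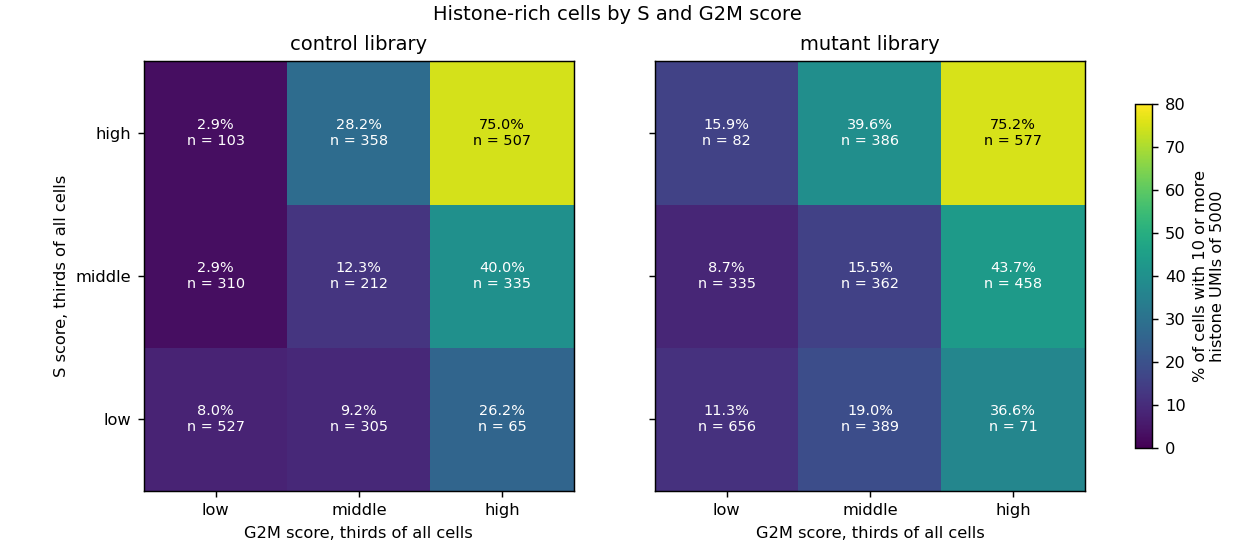
Share of histone-rich cells (10 or more histone UMIs of 5000) by band of S score (vertical) and G2M score (horizontal), control left and mutant right, with the number of cells in each box. The share peaks where both scores are high, at 74.95% in control and 75.2% in mutant, and lies at 2.91% in control cells high in S and low in G2M score.

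Sums over the lists of DNA replication and mitosis genes were higher in muscle progenitor-like cells with 20 or more thinned histone UMIs than in those with 0 to 4. Control cells with 0 to 4, 5 to 9, 10 to 19 and 20 or more thinned histone UMIs numbered 233, 96, 68 and 166. From the lowest to the highest bin, the DNA replication list read 2497, 2822, 3601 and 3631 CPM and the mitosis list 1853, 1680, 2668 and 2932. Single genes differed in course. Between the lowest and the highest bin, Pcna, the sliding clamp of DNA polymerase, went from 150.005 to 267 CPM, and Slbp, which binds the stem-loop, from 128 to 229. Top2a, the topoisomerase of late S phase and mitosis, went from 155 to 602, whereas Ccnb1, cyclin B1, read 124 and 132, and Cdc6, which loads the replicative helicase, peaked in the third bin at 86.8 against 43.8 and 61.4. In the mutant library, with 186, 126, 128 and 148 cells, Pcna, Slbp and Top2a went from 153 to 258, from 132 to 225 and from 159.9 to 519.9, the replication list read 2384, 2645, 2943 and 3543 CPM from the lowest to the highest bin, and the mitosis list 1696, 1795, 2629 and 2531.

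The G1-called share was 15.02% in the lowest and 0.602% in the highest control bin, and 22.04% and 0.676% in mutant. Most cells of the lowest bin were thus not called G1: 51.1% were S-called and 33.9% G2M-called in control, and 49.5% and 28.5% in mutant. In the highest bin these shares were 56.6% and 42.8% in control, and 68.9% and 30.4% in mutant. Of all S-called progenitor-like cells, 44.1% in control and 51.2% in mutant were histone-rich. Myog, which starts muscle differentiation, read 178, 153, 79.8 and 121 CPM from the lowest to the highest control bin and 82.9, 57.3, 58.5 and 57.4 in mutant. Pax7 read 95.2, 139.9, 177 and 126 in control and 78.9, 107, 108 and 88.3 in mutant, highest in the middle bins of both libraries. Median depth differed between bins, from 14311 to 34606 UMIs in control, and its part in these values was not tested.

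Nearly every single member was higher in S-called than in G1-called progenitor-like cells. Of the 49 members with at least 200 UMIs in the class, the counting interval of S over G1 lay above 0 in 45 in control and in 40 in mutant, and below 0 in none of them in either library. The median log2 ratio was 2.19 and 1.55, and the ratio was smaller in mutant than in control in 40 of the 47 members with a value in both. The share of all genes with intervals above 0 is not given here. Counted by size, 50 of 52 tested members in control and 48 of 54 in mutant were at least 1.5-fold higher in S-called cells, with 0 lower in both, where 15.9% and 11.1% of all genes tested were higher and 12.7% and 12.4% lower.

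Among H2A genes, Hist1h2ae (chr13:23570517-23571220, minus strand), which pairs with Hist1h2bg, read 39.6 CPM in G1-called, 693 in S-called and 699.6 in G2M-called control progenitor-like cells. In mutant cells it read 85.9, 632 and 493. Its S over G1 log2 ratio of 4.13 (3.70 to 4.59) in control compared with 2.88 (2.62 to 3.15) in mutant. Hist1h2ad had a log2 ratio of 4.01 and 2.999 on 7 and 17 G1 UMIs. Hist1h2ab, with 47.6% of its sequence unique, read 264 CPM in control and 209 in mutant progenitor-like cells, with log2 ratios of 2.62 and 2.53.

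Among the linker histones, Hist1h1e read 337 CPM in control and 249.4 in mutant progenitor-like cells, with log2 S over G1 ratios of 2.12 and 1.56. Reads of Hist1h1e and Hist1h2be cannot be fully told apart, since these genes overlap on the same strand. Hist1h1b, whose sequence was unique throughout, read 285 and 217 CPM, with ratios of 2.96 and 2.88. Hist1h1a read 13.51, 196 and 149 CPM in G1-called, S-called and G2M-called control cells and 20.8, 137 and 69.4 in mutant, with S over G1 ratios of 3.86 and 2.72.

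The named H3 and H4 genes had log2 S over G1 ratios between 1.26 and 2.24 in control. Hist1h3e read 24.3 CPM in G1-called and 96.0 in S-called control cells, a log2 ratio of 1.98, and 58.2 and 106 in mutant, a ratio of 0.87. Hist1h3c had ratios of 1.46 and 1.104, and Hist1h4d, the most counted H4 gene with 10752 UMIs, 1.61 and 1.07. Hist1h4n had ratios of 2.24 and 0.39 (-0.11 to 0.93 in mutant), with 19.3% of its sequence unique. Hist1h4h had 1.26 and 0.30. Of the 9 mutant intervals that reached 0, 5 belonged to H4 genes. Intervals widen as counts fall, so no trait of H4 genes is read from this count.

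The lowest ratios belonged to a pair of H2B genes. Hist1h2bc read 28.8 CPM in G1-called, 41.4 in S-called and 39.4 in G2M-called control progenitor-like cells, a log2 S over G1 ratio of 0.52 (-0.00 to 1.09), and 42.9, 45.9 and 46.3 in mutant, a ratio of 0.10 (-0.30 to 0.51). Hist3h2ba read 7.21, 8.02 and 8.96 in control, a ratio of 0.15 (-0.91 to 1.42), and 21.5, 20.1 and 23.5 in mutant, a ratio of -0.09 (-0.66 to 0.51). Intervals of both genes reached 0 in both libraries but were wide, up to 1.09 and 1.42 in control, so flat levels were not shown. Hist1h2bk, another H2B gene, had ratios of 3.10 and 1.21.

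**Figure D3:**
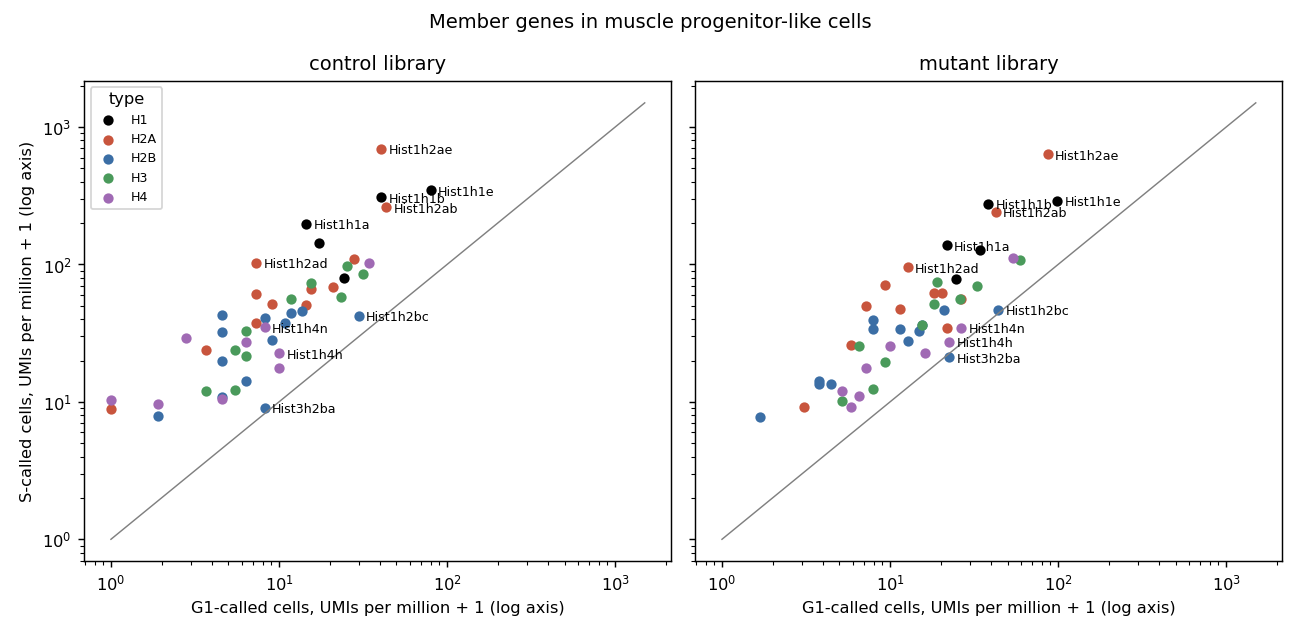
CPM + 1 of the 49 members with at least 200 UMIs in muscle progenitor-like cells, in G1-called (horizontal) and S-called cells (vertical), on log axes, control left and mutant right, colored by histone type. The grey line marks equal levels: Hist1h2ae lies furthest above it in control at a log2 ratio of 4.13, and Hist3h2ba lies on it at 0.15 in control and -0.09 in mutant.

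Neuron-like cells, led by Pcsk1n, Dcc and Ina in one cluster and by Neurod1 and Ppp1r17 in the other, held the lowest histone level of the control library. Tubb3, a neuronal tubulin, read 2478 CPM there in control and 3394 in mutant. Progenitor-like over neuron-like cells gave a log2 ratio of 1.53 for summed members in control (1.49 to 1.58, 2.89-fold) and 1.01 in mutant (0.98 to 1.05, 2.02-fold). Of the 49 members, the interval lay above 0 in 47 in control and 46 in mutant, with medians of 1.71 and 1.35, and no share of all genes is given for these intervals. The 49 were kept for their UMIs in progenitor-like cells, so members low there could not enter. Their counts and medians therefore lean upward and are not read as a result. At least 1.5-fold higher were 50 of 57 tested members in both libraries, where 21.6% of all genes tested in control and 22.8% in mutant were, and 2 members in control and 3 in mutant were lower, where 40.9% and 35.9% of all genes were.

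Hist3h2ba (chr11:58948920-58949533, plus strand), an H2B gene outside the large cluster, went the other way by a wide margin. It read 240.0 CPM in control (225 to 256) and 354 in mutant neuron-like cells (341 to 368), against 8.30 and 21.3 in progenitor-like cells, a log2 ratio of progenitor-like over neuron-like of -4.85 (-5.13 to -4.59) and -4.06 (-4.23 to -3.88). It held 19.5% of the histone UMIs of neuron-like cells in control and 24.4% in mutant. A UMI of it was found in 69.3% of 192 control and 82.5% of 463 mutant neuron-like cells, against 5.48% and 12.1% of EC-like cells, at median depths of 17032 and 13702 against 20162 and 17038 UMIs.

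The gene was not restricted to neurons. Epithelium-like cells followed at 76.0 and 161 CPM and mesenchyme-like cells at 22.2 and 46.1. Cluster 7 was lowest in control with 1 UMI in 174 cells, and held 45 UMIs in 176 mutant cells. Both neuron-like clusters held it, at 264 and 456 CPM in the cluster led by Pcsk1n and Dcc and at 211 and 189.8 in the cluster with Neurod1. Over all filtered cells, 1747 control and 4682 mutant UMIs were counted, and free RNA as a source of part of them was not tested.

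Other members kept a larger share of their progenitor level in neuron-like cells than the sum did. Hist1h2bc read 39.9 CPM in control progenitor-like and 39.1 in control neuron-like cells (log2 0.03, -0.23 to 0.29), and 48.0 and 41.4 in mutant. Hist1h4h had log2 ratios of 0.57 and 0.25. By contrast, Hist1h2ae read 649 in progenitor-like and 107 in neuron-like cells of the control and 522 and 123 in mutant, and Hist1h2bl, whose gene pairs with Hist1h2ai, had the highest ratio, 3.12 and 2.52, on few neuronal counts. By type, H2B genes held 31.4% of the histone UMIs of control neuron-like cells and 35.0% in mutant, against 10.0% and 11.9% in progenitor-like cells, and H1 genes 19.03% and 18.1% against 28.0% and 25.2%. Hist3h2ba alone gave 938 of the 1513 H2B UMIs of control neuron-like cells and 2721 of 3911 in mutant. No trait of H2B genes is therefore read from these shares.

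Neuron-like cells were mostly called G1, 88.6% in control and 88.8% in mutant. Of their histone-rich cells, 75% in control and 70.9% in mutant were G1-called, smaller shares than among all neuron-like cells. Histone-rich were 16.5% of G1-called, 33.3% of 9 S-called and 50% of 12 G2M-called control neuron-like cells. In mutant the shares were 18.4%, 55.6% of 18 and 62.5% of 32. Without Hist3h2ba, the histone-rich share of neuron-like cells was 12.97% in control and 10.99% in mutant, in place of 19.5% and 23.1%, and the progenitor-like over neuron-like ratio was log2 1.84 and 1.41. Hist2h2be, an H2B gene known from olfactory sensory neurons, read 6.14 and 5.47 CPM in neuron-like cells and 1.26 and 3.64 in progenitor-like cells.

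**Figure D4:**
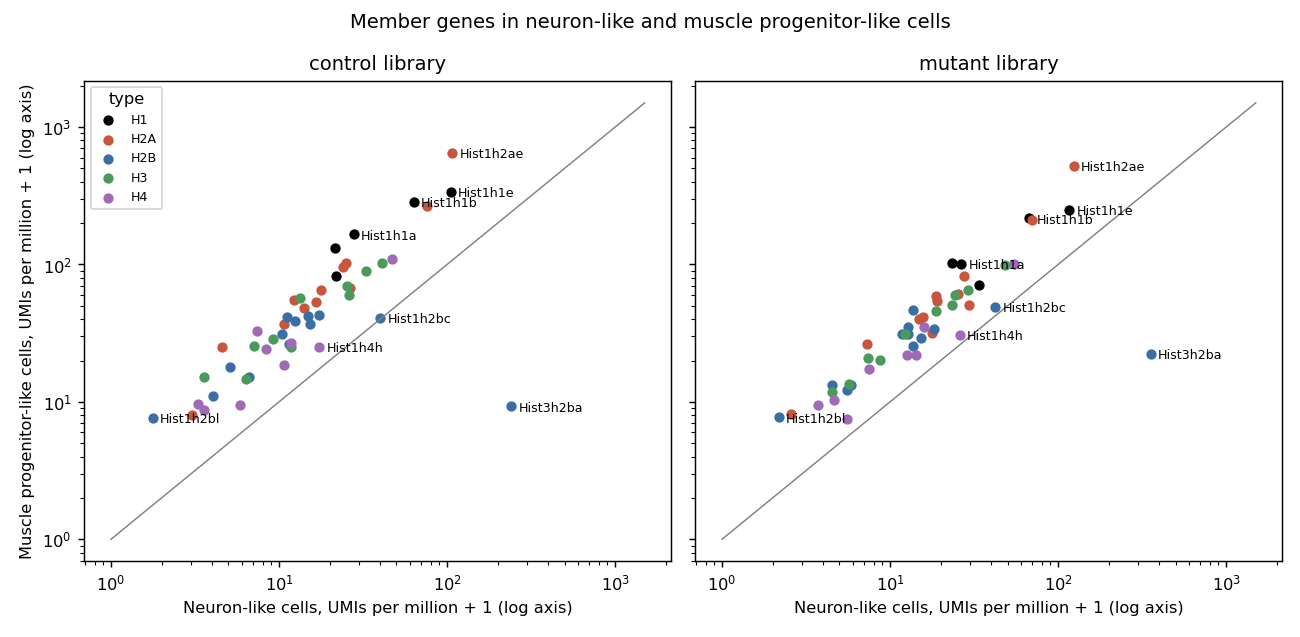
CPM + 1 of the 49 members with at least 200 UMIs in muscle progenitor-like cells, in neuron-like (horizontal) and muscle progenitor-like cells (vertical), on log axes, control left and mutant right, colored by histone type. Most members lie above the grey line of equal levels, Hist1h2bc lies near it and Hist3h2ba lies far to its right at 240.0 against 8.30 CPM in control. Members were kept for their UMIs in progenitor-like cells, which favors places above the line.

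Between the libraries, summed histone UMIs of muscle progenitor-like cells were lower in mutant, with a log2 ratio of mutant over control of -0.28 (-0.30 to -0.26, 0.824-fold). H1 genes gave -0.44 and H2A genes -0.31, H3 genes -0.23, and H2B and H4 genes -0.03 each. The size of the difference depended on how cells were weighed: it was -0.067 with cells thinned to equal depth, -0.10 as a mean over cells, -0.18 in female-like cells alone and -0.39 with classes set by marker counts. By phase, the ratio was 0.56 in G1-called cells (0.43 to 0.69), -0.13 in S-called cells and -0.46 in G2M-called cells. At equal depth, mean histone UMIs per cell in control and mutant were 4.56 and 6.07 in G1-called cells. They were 15.7 and 17.3 in S-called and 18.5 and 14.5 in G2M-called cells. The direction in S-called cells thus depended on how cells were weighed, and none is read from it. A higher mutant level in G1-called cells was not particular to this class. Over all filtered cells the G1-called ratio was 0.28 (0.26 to 0.31), and by class it ran from -0.63 in cardiomyocyte-like to 0.57 in mesothelium-like cells. G1-called progenitor-like cells that were histone-rich were 3 of 57 in control (5.26%, 1.098 to 14.6) and 16 of 84 in mutant (19.05%, 11.3 to 29.1). These intervals overlap, which does not settle whether the shares differ.

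Few single members passed a 1.5-fold difference in progenitor-like cells. Of 59 tested, 4 were higher and 3 lower in mutant, or 6.78% and 5.08%, where 15.4% and 9.21% of all genes tested were. Counting intervals lay below 0 for 28 members and above 0 for 9, with a median of -0.14 against 0.02 over all genes tested. The share of all genes with such intervals is not given here, and intervals narrow as counts rise, so these 28 and 9 are not set against other genes. Higher were Hist2h2be, Hist3h2a, Hist3h2ba and Hist1h4b, with Hist3h2ba at 1.36 (1.06 to 1.67) on 132 control and 299 mutant UMIs. Lower were Hist1h1a at -0.72 (-0.81 to -0.62), Hist1h2an at -0.78 with 16.7% of its sequence unique, and Hist2h2aa1 at -1.02, on 33 UMIs. Hist1h2ae itself read 649 CPM in control and 522 in mutant, a ratio of -0.31 (-0.36 to -0.27).

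Differentiating myocyte-like cells also held less histone RNA in mutant, at log2 -0.51 (-0.55 to -0.47). Of 51 members tested, 13 were at least 1.5-fold lower and 3 higher, where 11.3% and 16.1% of all genes were. Hist1h2ae gave -0.98 and Hist1h1b -0.83. In female-like cells alone, with 95 mutant and 311 control cells, the summed ratio was -0.01, and with the libraries merged without integration it was -0.98. The class rested on few S-called cells, 43 in control and 23 in mutant, which held 8736 and 2377 of its 15630 and 7894 histone UMIs.

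Mesenchyme-like cells went the other way. Their histone UMIs read 1726 CPM in control (1701 to 1751) and 2371 in mutant (2341 to 2402), log2 0.46 (0.43 to 0.49). Of 58 members tested, 30 were at least 1.5-fold higher and 0 lower, where 11.5% and 14.6% of all genes were. The interval lay above 0 for 45, for which no share of all genes is given. H2B genes gave 0.72, H4 genes 0.62, H3 genes 0.52, H2A genes 0.41 and H1 genes 0.28. Hist1h4n gave 1.02, Hist1h2ad 0.61 and Hist1h2ae 0.45, while Hist1h1a gave -0.09 (-0.26 to 0.07). The ratio was 0.68 in female-like cells alone, 0.26 in S-called cells, 0.08 with the libraries merged without integration and 0.08 with at least 1000 genes and no upper limit. Cluster 6, whose closest marker list was mesenchyme, lay outside this class and held 345 control and 61 mutant cells. In the clusterings that gave 0.08, a cluster with its leading genes was named mesenchyme-like. S-called and G2M-called cells were 17.5% and 14.96% of the mesenchyme-like class in control and 21.4% and 19.8% in mutant.

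Neuron-like cells gave log2 0.24 (0.19 to 0.29), with 8 of 52 members higher and 1 lower, where 8.03% and 18.7% of all genes were, and 0.15 without Hist3h2ba. Epithelium-like cells gave 0.18 (0.14 to 0.22), with 12 of 53 higher and 0 lower, where 11.4% and 12.2% of all genes were. Cluster 7 gave 0.28 (0.24 to 0.31), with 9 of 53 higher and 0 lower (11.4% and 19.4% of all genes), and cluster 6 gave -0.10 (-0.15 to -0.05), with 8 of 53 higher and 6 lower (9.38% and 15% of all genes).

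EC-like cells, the class on which the study of vascular malformations centers, did not differ in summed histone UMIs beyond counting error, at 1982 CPM in control (1933 to 2031) and 1994 in mutant (1971 to 2018), a log2 ratio of 0.01 (-0.03 to 0.05). Of 56 members, 10 were higher and 0 lower, where 15.3% and 14.9% of all genes were. An edgeR TMM factor moved this ratio to 0.12. By phase, the pooled ratios of EC-like cells went in opposite directions: 0.29 in G1-called (0.19 to 0.40), 0.40 in S-called (0.33 to 0.47) and -0.26 in G2M-called cells (-0.31 to -0.20). In control these phases held 66, 40 and 37 cells, and the pooled intervals leave out the spread between cells. Histone-rich were 35% of control (20.6 to 51.7) and 51.25% of mutant S-called cells (43.2 to 59.2). Among G2M-called cells the shares were 62.2% (44.8 to 77.5) and 53.9% (46.0 to 61.6). Intervals overlapped in both phases, so no difference is read from them. Cardiomyocyte-like cells gave -0.23 (-0.32 to -0.14) with 3 of 40 members higher and 14 lower (13.2% and 21.9% of all genes), and -0.06 with the TMM factor. Mesothelium-like cells gave -0.06 (-0.15 to 0.02), with 12 of 42 higher and 8 lower (22.5% and 13.4% of all genes).

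**Figure D5:**
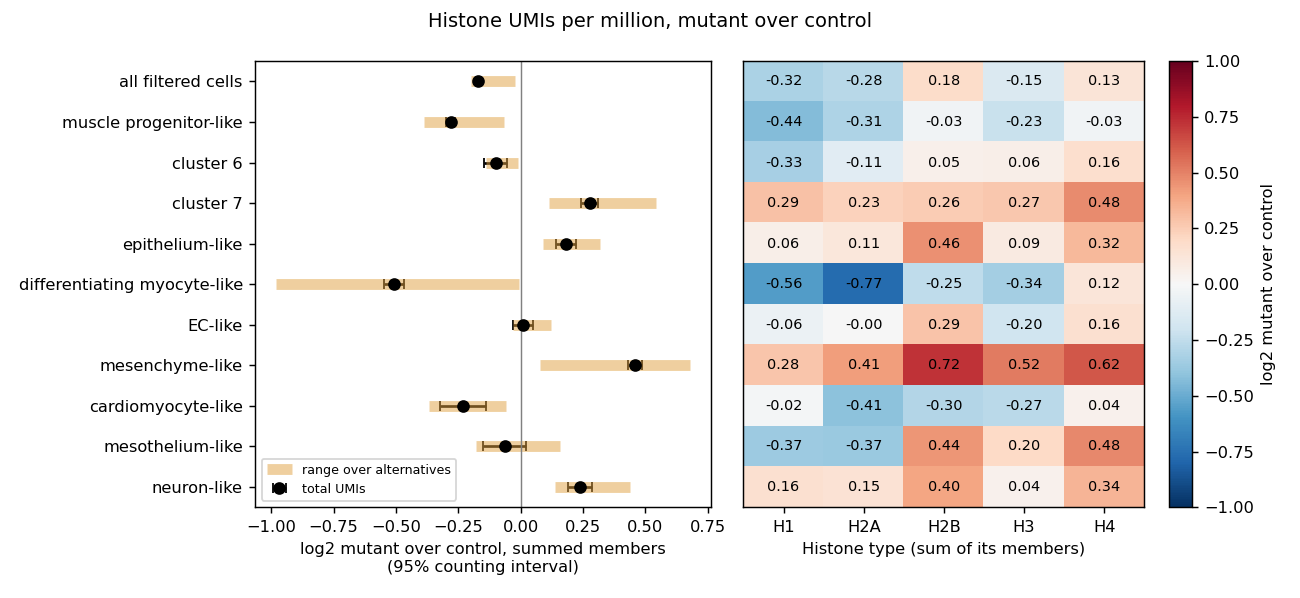
Mutant over control log2 ratio of histone CPM by class. Left, summed members with the 95% counting interval and, in ochre, the range over the processing alternatives; right, the ratio by histone type. Mesenchyme-like cells lie at 0.46 with every type above 0. Muscle progenitor-like cells lie at -0.28 with H1, H2A and H3 below 0, and with H2B and H4 at -0.03 with counting intervals that hold 0. The range of differentiating myocyte-like cells runs from -0.98 to -0.01.

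Hist3h2ba stood against the sum of the members in both muscle classes, where it was higher in mutant, at log2 1.36 in progenitor-like and 1.33 in differentiating myocyte-like cells. It was also higher in mesenchyme-like (1.05) and neuron-like cells (0.56, 0.45 to 0.67), where the sum was higher too. In cardiomyocyte-like cells its control level of 20.8 CPM (12.3 to 32.8) and its mutant level of 16.9 (12.7 to 22.1) had overlapping intervals. Over all filtered cells its level was 27.7 CPM in control and 67.2 in mutant, the largest log2 ratio of any member at 1.28. Neuron-like cells, where it was highest, were 192 of 2783 control and 463 of 3489 mutant cells. The part of this difference in the ratio of 1.28 was not tested. Within the first neuron-like cluster Hist3h2ba went from 264 CPM in control to 456 in mutant, on 566 and 2165 UMIs. In the second it read 211 and 189.8, on 372 and 556 UMIs. No counting interval was taken for these cluster ratios, so no direction is read from the second.

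Genes that make histone messengers or handle histone proteins were taken as lists, to be read against the 15.9% of all genes tested in control and 11.1% in mutant that were at least 1.5-fold higher in S-called cells. Of 17 genes of histone mRNA making and control, 9 of 16 tested in control and 5 of 16 in mutant were at least 1.5-fold higher in S-called than in G1-called progenitor-like cells, and 0 were lower. Ccne2, a cyclin that starts S phase, gave log2 3.52 and 2.77, and Slbp 1.93 and 1.08, both used in the phase calls. Npat, the activator of histone gene transcription, read 30.6 CPM in G1-called and 49.3 in S-called control cells and 41.5 and 42.1 in mutant, ratios of 0.69 and 0.02.

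Of 16 histone chaperones, which carry new histones to DNA, 2 of them used in the calls, 6 were higher in S-called cells in each library and 0 lower. Asf1b gave log2 3.61 and 2.17. Chaf1b, a subunit of the chromatin assembly factor that is itself used in the phase calls, gave 2.88 and 1.77. Of 11 genes listed as replacement histones made from polyadenylated messengers, 1 was used in the calls. In each library 2 were higher (18.2%, against those 15.9% and 11.1% of all genes), H2afz at 0.83 and 0.60 and H2afx at 0.82 and 0.61. All 22 genes of DNA replication were higher in both libraries, 15 of them used in the calls, with Cdc6 at 5.003 and 2.69. Of 14 mitosis genes, 12 of them used in the calls, 13 were higher in control and 11 in mutant. Of 7 genes of cell cycle exit, 2 were higher and 1 lower in control, and 0 of 6 tested passed in mutant.

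Between the libraries, few genes of these lists passed the 1.5-fold limit in progenitor-like cells. Of all genes tested there, 15.4% were higher and 9.21% lower. None of the chaperones, replacement histones, replication or mitosis genes passed 1.5-fold, with medians of -0.08, 0.18, -0.09 and -0.05. In the list of mRNA making and control, with a median of -0.06, 1 of 17 passed, Ccne1, cyclin E1, at 279 CPM in control and 138 in mutant, log2 -1.01 (-1.09 to -0.94). Of the exit genes, 2 were higher and 1 was lower: Cdkn1a, the inhibitor p21, went from 11.1 to 27.4 CPM, log2 1.31, Cdkn1b was the other, and Cdkn2c gave -1.21. Cdkn1c, the inhibitor p57, read 4348 and 3220 CPM, log2 -0.43.

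Against neuron-like cells, all 22 replication and 14 mitosis genes were at least 1.5-fold higher in progenitor-like cells of both libraries, as were 11 of 16 chaperones and 7 genes of mRNA making and control. Of all genes tested, 21.6% in control and 22.8% in mutant were higher, and 40.9% and 35.9% were lower. Among replacement histones, 3 of 11 were higher in each library (27.3%), near the share of all genes. In control 1 was lower (9.09%) and in mutant 2 were (18.2%). H2afj gave -0.26 and -0.42. In EC-like cells, of these lists 1 gene of mRNA making and control and 1 mitosis gene were lower in mutant, 2 exit genes were higher, and none of the chaperones, replacement histones or replication genes passed. Of all genes tested in EC-like cells, 15.3% were higher and 14.9% lower. Cdkn1a read 22.2 CPM in control and 101 in mutant.

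Of 4492 genes compared, those whose level over the 20 class sums (10 classes in each library) was most like the summed histone level were U2af2 (Spearman's rho 0.91), Cebpz (0.89), Nucks1 (0.89), Fcf1 (0.89) and Rbmxl1 (0.89). U2af2 is a splicing factor, and Nucks1 a nuclear protein bound to DNA. These sums share their libraries and depths, and the rho values describe this set of classes.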

How the data were processed

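Single-cell 5′ RNA sequencing (Next GEM kit v2) was done on eYFP-sorted cells, with 1 library of 3 pooled embryos per genotype at E13.5. The authors deposited raw UMI counts per gene and called cell, made with Cell Ranger 7.1.0 on mm10 per the labels. The annotation release and the counting of intronic reads are not given in the sources used here. The member genes and all lists were chosen with earlier results of these data known.

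Cells were integrated by canonical correlation anchors in Seurat 5.3.0 (R 4.3.3) on 2000 variable genes that left out the members, the listed genes and the phase genes (154 in all), with 30 components, 20 neighbours and a resolution of 0.35, which gave 15 clusters. A cluster was named X-like where at least 3 of its listed markers were raised 2-fold or more and its leading genes did not go against the name. Comparisons were limited to the 10 classes that held 50 cells or more in each library, 8 of them named. For phase calls, cells were thinned to 5000 UMIs and scored with the 43 S and 54 G2/M genes that Seurat provides. Doublets were kept, because the automatic threshold of Scrublet (scanpy 1.11.5) called 1 cell in both libraries together and thus did not work. Its highest scores, 0.8% of cells per 1000 deposited cells, were removed as an alternative.

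Histone UMIs of a class in a library were summed and are given per 1000000 UMIs of that class (CPM). UMIs are counted once per molecule and were not divided by gene length. Intervals are exact Poisson for levels, conditional exact binomial for log2 ratios and, for cell shares, Clopper-Pearson, all at 95% and all for counting error only. With 1 library per genotype, no test between libraries, classes or genes was made, and a gene was counted as higher or lower at a 1.5-fold ratio among genes with at least 20 UMIs in the groups compared. Members were named as the 2 most counted of each type, and the 3 highest and 3 lowest in pooled S over G1 ratio among members with at least 200 UMIs in muscle progenitor-like cells. Members and genes named outside this rule (Hist2h2be, Hist3h2a, Hist1h4b, Hist1h2an, Hist2h2aa1, Hist1h2aa, Hist1h2ba, Hist1h2bk and Hist1h2bl among the members) were chosen after their values were seen. Uniqueness was the share of 100-base stretches found in no other annotated gene. Promoters came from RefSeq (GRCm38.p6) and stem-loops from the GRCm38 transcripts. The counting scripts were tested on simulated counts. The alternatives tried were other clusterings, classes from marker counts, other cell filters, female-like cells alone, thinned cells, means over cells, other gene minimums, other limits for histone-rich cells, edgeR 4.0.16 TMM factors, and sums without the leading member or without mitochondrial and ribosomal protein genes. After the data were seen, sums without Hist3h2ba and without the shallower progenitor-like cluster were added.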

Additional observations from a re-analysis of the deposited data

Results flagged for a closer look

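In 3 named classes, all with a counting interval above 0, the summed histone UMIs of the mutant library stood above those of the control library, opposite in direction to muscle progenitor-like cells, where the log2 ratio of mutant over control was -0.28. The ratio was 0.46 in mesenchyme-like, 0.24 in neuron-like and 0.18 in epithelium-like cells. The value of 0.46 depended on where the class was drawn. It left out cluster 6, with 345 control and 61 mutant cells, and was 0.08 in clusterings that named a cluster with its leading genes mesenchyme-like. Cluster 7, left unnamed, also stood above 0, at 0.28 (0.11 to 0.54 under the alternatives). With 1 library per genotype, the difference in direction between these classes was not tested. The ratio kept its sign in each of the 4 named classes under all alternatives run, from -0.39 to -0.067 in muscle progenitor-like, 0.08 to 0.68 in mesenchyme-like, 0.14 to 0.44 in neuron-like and 0.09 to 0.32 in epithelium-like cells. Beside it, the share of cells not called G1 was 32.4% in control and 41.3% in mutant mesenchyme-like cells, and 89.9% and 85.7% in muscle progenitor-like cells. Female-like cells were 98.4% of control and 31.9% of mutant mesenchyme-like cells and 97.4% and 31.4% of muscle progenitor-like cells, and the part of either in the ratios was not tested.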

How the results depend on the processing

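No paired analysis was possible because each genotype was 1 library, and for the same reason no replicate could be left out. Under the alternatives run, ratios changed sign only in EC-like cells (0.01, from -0.03 to 0.12) and mesothelium-like cells (-0.06, from -0.18 to 0.16), whose counting intervals held 0, and the order of the libraries in the histone-rich share changed with its limit. Of 145 other values under alternatives, 84 moved by less than their counting interval and 61 moved by more. The causes of these shifts were not tested. The histone-rich share of muscle progenitor-like cells was 58.6% in control and 68.4% in mutant at a limit of 5 UMIs, and 29.5% and 25.2% at 20. The log2 ratio of progenitor-like over neuron-like cells in control was 1.83 with the libraries merged without integration, 1.24 with thinned cells, 1.28 as a mean over cells, 1.37 without Hist1h2ae, 1.74 without mitochondrial and ribosomal protein genes in the total and 1.84 without Hist3h2ba, and in mutant, in this order, 1.08, 0.94, 0.95, 0.86, 1.18 and 1.41, as well as 1.08 without the highest Scrublet scores and 1.06 in female-like cells. The S over G1 ratio of progenitor-like cells in control was 2.35 with classes from marker counts, 2.71 with mitochondrial UMIs under 5%, 1.78 thinned, 1.81 as a mean over cells, 2.27 without Hist1h2ae and 2.67 without the shallower cluster, and in mutant 1.88 in female-like cells, 1.51 thinned, 1.48 as a mean over cells, 1.63 without Hist1h2ae and 1.62 with phases called at full depth. The mutant over control ratio of progenitor-like cells was -0.31 merged, -0.39 with classes from marker counts, -0.30 with mitochondrial UMIs under 5%, -0.18 in female-like cells, -0.067 thinned, -0.10 as a mean over cells, -0.31 with the TMM factor and -0.13 in S-called cells. The number of members at least 1.5-fold higher there was 1 with a minimum of 100 UMIs and 9 with a minimum of 1. Pooled sums weigh deep cells more than thinned cells do, and the shallower progenitor-like cluster had a median of 9690 UMIs per cell in control against 32524 in the other. With 57 control and 84 mutant G1-called progenitor-like cells, the S over G1 ratios rest on few cells.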

Other observations

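Cells with 1000 or more genes and under 10% mitochondrial UMIs whose gene number fell outside the filter, 236 in control and 438 in mutant, held 2342 and 2487 histone CPM, beside 2485 and 2210 in the filtered cells. Classes with too few cells to compare held 2742 and 2562 CPM in mural-like cells (38 and 25 cells), 2446 and 4085 in neural crest-like cells (52 and 24 cells) and, in 46 mutant hepatoblast-like cells, 1412.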
